A study of Mus musculus with 4 samples.

Results

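Oxidative phosphorylation subunits were followed across 4 mouse fibroblast arrays: the nuclear-encoded proteins of the 5 complexes that make up the mitochondrial respiratory chain and ATP synthase. Genes were taken as members by their names on the array (Nduf genes of the a, b, c, s and v series, Sdha to Sdhd, Uqcr genes, Cox4 to Cox8 genes and Atp5 genes). The names gave 87 of 29653 genes with a non-control probe: 39 of complex I, 4 of complex II, 8 of complex III, 18 of complex IV and 18 of complex V. The name rule itself uses no measured value, but the members were chosen with earlier results of these data known. A gene was represented by its probe with the highest mean signal, and 128 probes named the 87 genes.

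The cells were Swiss 3T3 fibroblasts, an established mouse line, grouped as Lpar1-/- (KO) at 24 h, Lpar1+/+ (WT) at 24 h, KO at 0 h and WT at 0 h of coculture, with 1 single-channel array per group. Lpar1 encodes a receptor for lysophosphatidic acid, and the series belongs to a study of how fibroblasts and maturing mast cells act on each other. Fibroblasts were cocultured with bone marrow-derived mast cells of WT genotype, with SCF, a mast cell growth factor, at 100 ng/ml, and each array held total RNA pooled from 3 samples. The KO cells went through single-cell cloning after transfection of Cas9 and a guide next to exon 3 of Lpar1, so a difference between KO and WT may be one of the clone. What the samples of 0 h held is not given in the labels: the design text names fibroblasts both with and without mast cells.

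Electrons from NADH enter the chain at complex I and those from succinate at complex II. Complex III passes them to cytochrome c and complex IV to oxygen, while complexes I, III and IV pump protons whose return through complex V drives ATP synthesis. All but a few of the subunits are made from nuclear genes and imported, and a set of complex IV subunits has isoforms that are made mainly in muscle, testis or lung.

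Spots well above background made up 62.1% of non-control spots on KO 24 h, 67.3% on WT 24 h, 71.5% on KO 0 h and 72.7% on WT 0 h, and none was saturated. Fibroblast markers were present throughout, with 18, 19, 19 and 19 of 20 well above background in that order of arrays. Both arrays labelled 0 h also carried mast cell RNA. Of the 22 markers of mast cells on the array, 14 passed the background on KO 24 h, 15 on WT 24 h, 21 on KO 0 h and 20 on WT 0 h, and their summed signal was 103, 80.5, 613 and 464 times the array's 75th percentile. Without Cd63, which was bright on every array, that sum was 20.9 on KO 24 h, 2.68 on WT 24 h, 543 on KO 0 h and 392 on WT 0 h. Il1rl1 at 14.6 and Rab27b at 4.22 made up most of the sum of 20.9 on KO 24 h, against 0.211 and 1.38 on WT 24 h, and without these genes too it was 2.13 on KO 24 h and 1.08 on WT 24 h. Markers well above background on both 24 h arrays included Cpa3, Fcer1a, Cma1, Tpsb2, Tph1, Gata2 and Hdc, while Ms4a2, Tpsab1 and Mrgprb2 were so on the 0 h arrays only and Mcpt1 on none. The part of mast cell RNA in the differences between times, and between KO and WT at 0 h, was not tested. The only Lpar1 probe read -3.61 on KO 24 h, -3.15 on WT 24 h, -3.43 on KO 0 h and -3.20 on WT 0 h (log2). Whether that probe lies outside the edited stretch was not determined here, so it does not check the genotype.

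In what follows a signal is the log2 of a spot's processed intensity over its array's 75th percentile, and 0 is that percentile. A difference is between 2 arrays on this log2 scale. With 1 array per group there is no spread between replicates, so no test was possible and no p-value is given. The standard error (SE) comes from the scanner software's error of each spot, was 0.20 to 0.27 for a measured member between 2 arrays, and covers neither culture nor labelling. Members and other genes were taken as measured where the probe was well above background on both arrays of a difference. A difference of at least 2-fold, or the looser 1.5-fold, describes these arrays only.

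67 of the 87 members had a promoter window in RefSeq's table (GRCm38.p6), with 72 start sites among them. The window runs from 250 bases before to 50 bases after a start. Member windows were rich in CpG: the median ratio of observed to expected CpG was 0.792, against 0.384 over all 32851 windows. Motifs of 3 factors known for mitochondrial genes were searched on both strands. GCATGCG, the core bound by nuclear respiratory factor NRF1, was in 11 of the 72 member windows (15.3%) and in 3.58% of all windows. The ETS core CCGGAAG, which GABP binds, was in 17 (23.6%) and in 8.86% of all. The site AAGGTCA of the oestrogen-related receptors was in 8 (11.1%) and in 4.72% of all. All windows include those of non-coding and predicted genes, the NRF1 core can match both strands with 6 letters shared, and a match is a description of letters only.

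Windows of 4 members named below are printed as a description, 5′ to 3′ on the gene's strand, with motif letters in capitals. The isoform pair Cox7a1 (chr7:30183921-30184220, plus strand) and Cox7a2 (chr9:79759804-79760103, minus strand) holds none of the motifs, and their CpG ratios were 0.33 and 0.83. Uqcrc1 (chr9:108936398-108936697, plus strand) holds the NRF1 core on both strands at 1 place. Ndufs8 (chr19:3912725-3913024, minus strand) holds 1 ETS core.
Cox7a1: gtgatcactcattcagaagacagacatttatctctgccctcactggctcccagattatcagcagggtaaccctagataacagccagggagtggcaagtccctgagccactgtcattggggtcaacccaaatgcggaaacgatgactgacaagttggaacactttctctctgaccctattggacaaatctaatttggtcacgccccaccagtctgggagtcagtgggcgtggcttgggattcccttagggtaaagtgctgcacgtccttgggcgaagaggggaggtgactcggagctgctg
Cox7a2: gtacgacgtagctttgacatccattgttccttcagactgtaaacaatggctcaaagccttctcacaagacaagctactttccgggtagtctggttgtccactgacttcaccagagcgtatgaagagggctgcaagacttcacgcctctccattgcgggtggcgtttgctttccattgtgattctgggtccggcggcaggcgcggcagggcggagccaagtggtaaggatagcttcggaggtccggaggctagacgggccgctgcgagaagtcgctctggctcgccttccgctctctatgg
Uqcrc1: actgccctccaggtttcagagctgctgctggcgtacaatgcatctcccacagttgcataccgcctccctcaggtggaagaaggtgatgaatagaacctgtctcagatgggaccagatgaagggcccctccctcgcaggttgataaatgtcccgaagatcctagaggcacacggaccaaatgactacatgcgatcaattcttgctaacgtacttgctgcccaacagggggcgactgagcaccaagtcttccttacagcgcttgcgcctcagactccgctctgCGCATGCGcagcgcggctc
Ndufs8: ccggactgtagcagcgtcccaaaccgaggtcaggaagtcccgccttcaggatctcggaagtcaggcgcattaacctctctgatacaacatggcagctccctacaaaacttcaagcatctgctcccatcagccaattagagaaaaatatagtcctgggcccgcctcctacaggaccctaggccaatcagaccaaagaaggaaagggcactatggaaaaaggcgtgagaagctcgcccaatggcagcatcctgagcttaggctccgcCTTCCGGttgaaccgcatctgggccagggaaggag

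Oxidative phosphorylation genes were bright on all arrays. Of the 87 members, 83 were well above background on KO 24 h, 84 on WT 24 h, 83 on KO 0 h and 83 on WT 0 h, and 77 lay above the 75th percentile on each array. The median signal of the members was 4.56 on KO 24 h, 4.79 on WT 24 h, 4.16 on KO 0 h and 4.31 on WT 0 h. All 4 genes of complex II, all 8 of complex III and all 18 of complex V lay above the percentile everywhere. The 10 members with a mean signal under 1 were the tissue isoforms Ndufa4l2, Cox4i2, Cox6a2, Cox6b2, Cox7a1, Cox7b2, Cox8b and Cox8c with the copies Ndufa11b and Ndufb1-ps.

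**Figure D1:**
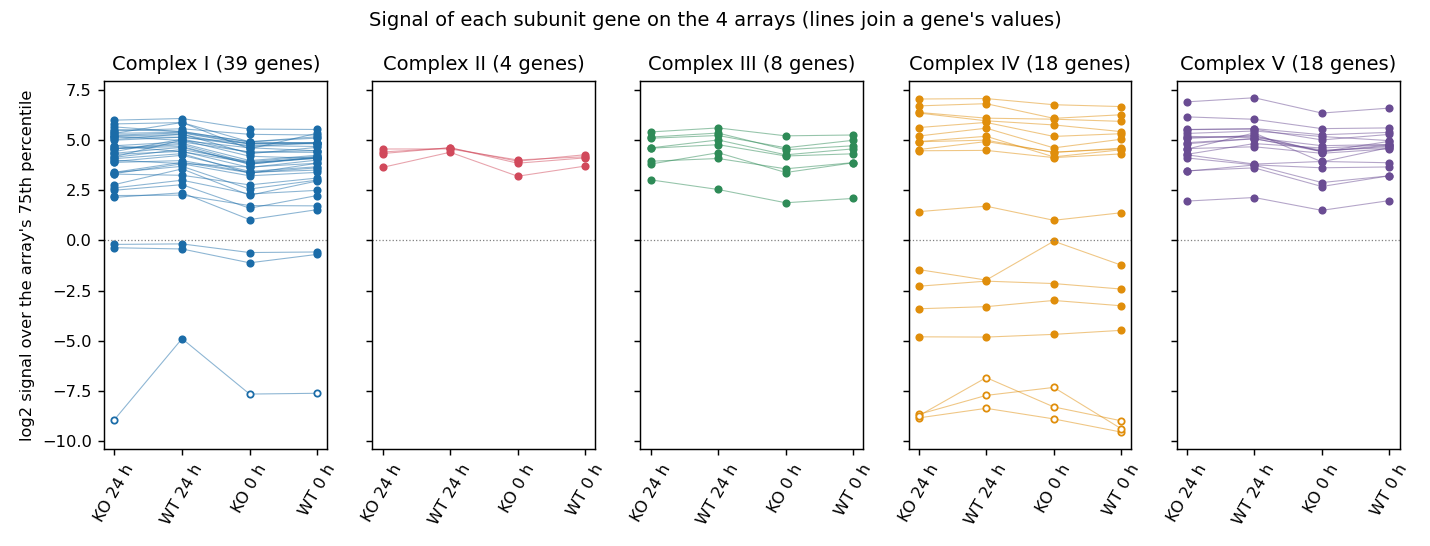
Signal of every subunit gene on KO 24 h, WT 24 h, KO 0 h and WT 0 h, as log2 over the array's 75th percentile (dotted line at 0), by complex; lines join the values of a gene, and open points were not well above background. Of the 87 genes, 77 lie above the dotted line on every array, and the low points are complex IV isoforms, Ndufa4l2 and the copies Ndufa11b and Ndufb1-ps.

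One order of the arrays recurred among the members. Of the 83 measured on all arrays, 65 were highest on WT 24 h, 15 on KO 24 h, 2 on KO 0 h and 1 on WT 0 h. The lowest array was KO 0 h for 65, WT 0 h for 13, WT 24 h for 3 and KO 24 h for 2. Both 24 h arrays lay above both 0 h arrays for 64 of the 83 members. Among the other genes with a mean signal of at least 1, a set chosen after the data had been seen and with median signals of 2.68 to 2.98 on the 4 arrays, 52.4% had both 24 h arrays above both 0 h arrays, and the highest array was WT 24 h for 39.7% and KO 24 h for 42.0%. The order WT 24 h, KO 24 h, WT 0 h, KO 0 h, from high to low, was found for 45 of the 83 members and 19.4% of the other bright genes. The summed signal of the mast cell markers had the reverse order, and the part of mast cell RNA was not tested.

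At 24 h subunit genes read slightly lower in KO than in WT cells, a direction that depended on the scale: the median was 0.54 with arrays scaled on the median level of fibroblast markers. It was -0.023 when the median of the markers' own differences was subtracted instead. These markers were no fixed reference: KO minus WT of the measured ones ran from -2.36 to 1.21 at 24 h and from -3.07 to 10.74 at 0 h. The median difference of the 83 measured members was -0.15 (interquartile range 0.25), and 66 of them lay below 0. Over all 17274 measured genes the median was -0.09 and 56.8% lay below 0, and over the other bright genes it was 0.00 and 50%. No member reached 2-fold in either direction, where 5.76% of all genes and 3.28% of the other bright genes were 2-fold higher in KO, and 12.2% and 2.51% were 2-fold lower. At 1.5-fold, 5 members were lower and none higher. Lower calls made up 23% of all genes and 10.2% of the other bright genes, and higher calls 13% and 10.6%. They included Ndufv3 and Ndufa3 of complex I, Sdhc of complex II and Atp5j2 of complex V.

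Ndufv3, an accessory subunit near the flavin-binding tip of complex I, had the lowest difference at 24 h. Its signal was 4.16 on KO 24 h, 4.997 on WT 24 h, 4.19 on KO 0 h and 4.08 on WT 0 h, so that WT 24 h alone was high and the other arrays differed by less than the SE. The KO minus WT difference came to -0.84 (SE 0.20) at 24 h and 0.10 at 0 h. A second, dimmer Ndufv3 probe gave -0.75 and 0.07 for the same differences, and the dimmest gave 0.03 and -0.02, so the probes of this gene disagree.

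Sdhc, a membrane anchor of succinate dehydrogenase, read 3.64 on KO 24 h, 4.39 on WT 24 h, 3.19 on KO 0 h and 3.70 on WT 0 h. It lay at -0.75 between genotypes at 24 h and -0.50 at 0 h, and a second probe gave -1.06 and -0.60. Both KO arrays thus lay below the WT array of the same time. Its probe lies at chr1:173059348-173059407 of mm9. The 9 measured genes within 1 Mb with a mean signal of at least 1 had a median KO minus WT of -0.20 at 24 h and -0.16 at 0 h.

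Atp5j2, subunit f in the membrane part of ATP synthase, was lower in KO at both times as well. Its signal was 4.54 on KO 24 h, 5.35 on WT 24 h, 3.91 on KO 0 h and 4.63 on WT 0 h, which gave -0.81 at 24 h and -0.72 at 0 h. The second probe gave -0.28 and -0.74. Among 13 measured neighbours within 1 Mb on chromosome 5, also with a mean signal of at least 1, 13 lay below 0 at 24 h and 10 at 0 h, with medians of -0.30 and -0.40. Of the other bright genes 50% and 64.1% did. Neighbour medians at 24 h and 0 h were -0.17 and -0.42 for Ndufb9 and -0.21 and -0.395 for Ndufa10. They were 0.32 and -0.31 for Ndufv3, 0.14 and -0.03 for Ndufa3, and 0.21 and -0.07 for Cox7a1. Ndufa3 is an accessory subunit of complex I. Its brightest probe read 4.42 on KO 24 h, 5.05 on WT 24 h, 4.38 on KO 0 h and 4.47 on WT 0 h. On that probe only WT 24 h was high. The probe next in signal gave a KO minus WT of -0.44 at 24 h and -0.14 at 0 h. The dimmest gave -0.28 and -0.29, and its 24 h minus 0 h was 0.44 in KO and in WT. The probes of this gene thus disagree, and at 24 h neither dimmer probe reached 1.5-fold.

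The highest members at 24 h stayed under 1.5-fold. Cox7a1, described with the isoforms, was at 0.52, Uqcrc1 at 0.48, Atp5f1 (subunit b of ATP synthase, now Atp5pb) at 0.46, Cox4i1 at 0.39 and Atp5j at 0.35. The second probe of Atp5f1 gave 0.11. Cox4i1, the common form of the subunit that binds adenine nucleotides in complex IV, was higher in KO at both times, with 6.34 on KO 24 h, 5.95 on WT 24 h, 5.75 on KO 0 h and 5.42 on WT 0 h.

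**Figure D2:**
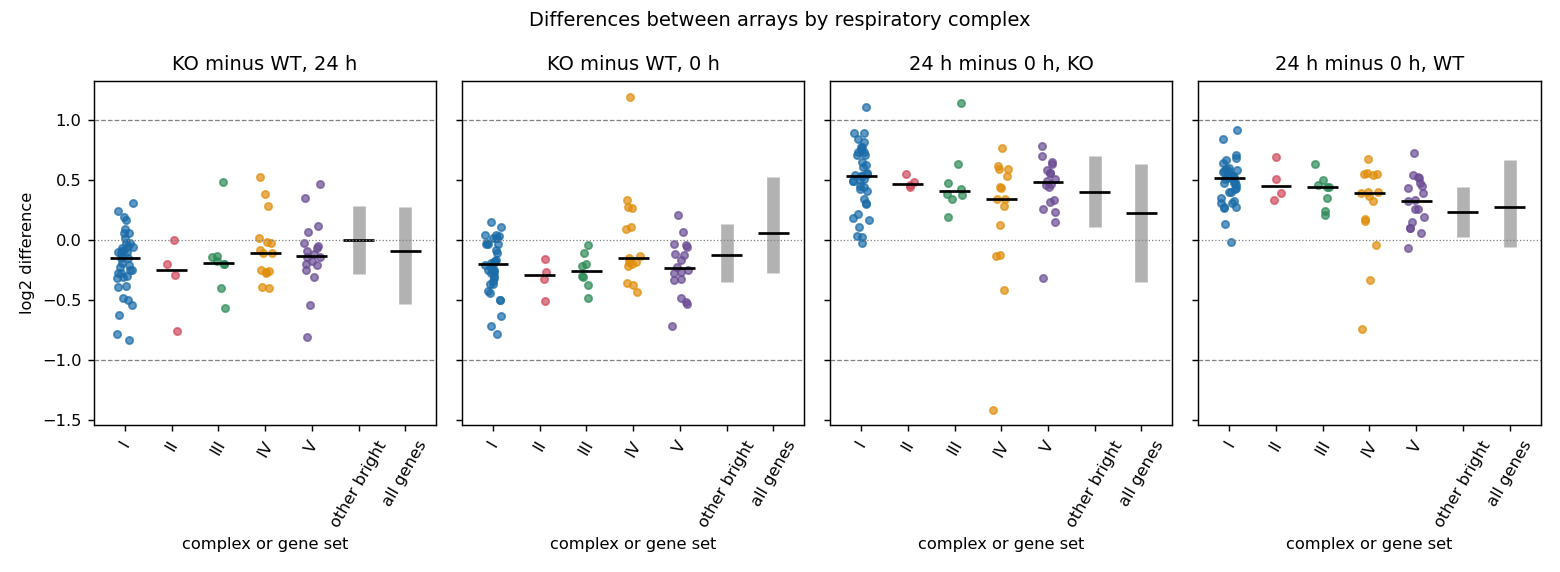
Log2 difference of each measured subunit gene by complex in 4 panels (KO minus WT at 24 h and at 0 h, 24 h minus 0 h in KO and in WT); black lines are medians, grey bars span the quartiles of the other genes with a mean signal of at least 1 and of all measured genes, and dashed lines mark 2-fold. On this scale of the 75th percentile most points lie below 0 between genotypes and above 0 between times, and scaling on the level of fibroblast markers turns both; the medians of the 83 members are -0.15, -0.20, 0.48 and 0.44.

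At 0 h the median KO minus WT of the members was -0.20 (interquartile range 0.29), with 67 of 83 below 0, and it too turned above 0 on fibroblast markers, to 1.09 by their median level and 0.27 by their median difference. All 20294 measured genes had a median of 0.06 with 46% below 0, and the other bright genes -0.13 with 64.1% below 0. A single member passed 2-fold, Cox7a1, which was higher in KO, against 9.33% of all genes and 1.32% of the other bright genes. No member was 2-fold lower, against 4.07% and 2.75%. At 1.5-fold, 1 member was higher, against 22.7% and 6.03%, and 4 were lower, against 10.9% and 11.1%. The lower members included Atp5j2 and the complex I accessory subunits Ndufb9 and Ndufa10. Ndufb9 read 5.33 on KO 24 h, 5.87 on WT 24 h, 4.55 on KO 0 h and 5.33 on WT 0 h, which put KO at -0.54 relative to WT at 24 h and -0.78 at 0 h. Ndufa10 was at -0.28 and -0.63.

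By complex, KO lay below WT at both times in the medians on the 75th percentile scale. For complex I they were -0.15 at 24 h and -0.20 at 0 h, for complex II -0.25 and -0.29, for complex III -0.19 and -0.26, for complex IV -0.11 and -0.15, and for complex V -0.13 and -0.23. All 7 nuclear-encoded core subunits of complex I, which bind the flavin, the iron-sulphur clusters and ubiquinone, lay below 0 at both times, with medians of -0.23 and -0.37. All 4 complex II genes did so too, as did 7 of 8 complex III genes at 24 h and 8 of 8 at 0 h. Some genes counted below 0 lay within 1 SE (0.20) of it, such as Sdhd at -0.002 at 24 h and Ndufv2 at -0.09 and -0.11. In complex V, 5 of 5 genes of the catalytic F1 head lay below 0 at 24 h and 4 of 5 at 0 h, the exception being Atp5e at 0.20. Of all genes 56.8% lay below 0 at 24 h and 46% at 0 h, and of the other bright genes 50% and 64.1%. The medians at 24 h and 0 h were -0.09 and 0.06 over all genes, and 0.00 and -0.13 over the other bright genes. At 24 h complexes IV and V thus lay near the median of all genes.

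Genotype differences of a gene at the 2 times come from separate arrays. Over the 83 members Pearson's r between them was 0.52 and Spearman's rho 0.47, and 57 members were below 0 at both times, 7 above 0 at both and 19 of opposite sign. Members share their arrays and hence any array-wide effect. Among the other bright genes r was 0.55, and 2352 of 6062 were below 0 at both times.

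**Figure D3:**
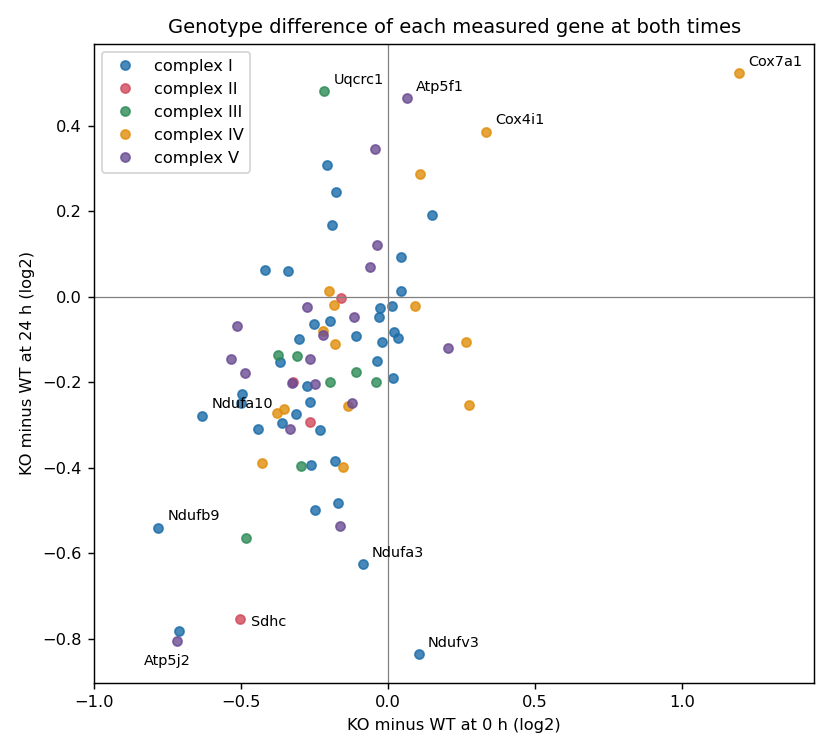
KO minus WT of each measured subunit gene at 0 h (horizontal) against 24 h (vertical), in log2, coloured by complex. Of the 83 genes, 57 lie at the lower left, below 0 at both times on this scale, Atp5j2 and Sdhc among them; Ndufv3 stands low at 24 h only and Cox7a1 far to the right.

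Between times, subunit genes were higher at 24 h than at 0 h in both genotypes when arrays were scaled on their 75th percentile, and the median turned below 0 in KO cells when they were scaled on spike-in RNAs and in both when scaled on fibroblast markers, by level or by difference. In KO cells the median 24 h minus 0 h was 0.48 (interquartile range 0.30), with 77 of 83 members above 0. In WT cells it was 0.44 (interquartile range 0.23), with 78 of 83 above 0. All measured genes had medians of 0.23 in KO (62.2% above 0) and 0.28 in WT (71.5% above 0). The other bright genes had medians of 0.40 in KO (80.2% above 0) and 0.23 in WT (77.1% above 0). In KO the members thus lay near the other bright genes, and in WT above them. The mast cell markers moved the other way. Without Cd63, which was bright on every array, they summed to 20.9 on KO 24 h, against 543 on KO 0 h. In WT that sum was 2.68 at 24 h, against 392 at 0 h. With Cd63 the sums were 103 and 613 in KO, and 80.5 and 464 in WT. The part of mast cell RNA was not tested.

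In KO cells 2 members passed 2-fold higher, against 9.48% of all genes and 8.46% of the other bright genes, and 1 passed 2-fold lower, against 10.9% and 4.17%. Uqcrc1, a core protein of complex III, read 3.01 on KO 24 h, 2.53 on WT 24 h, 1.87 on KO 0 h and 2.09 on WT 0 h. Its 24 h minus 0 h was 1.14 (SE 0.20) in KO and 0.44 in WT, and it stood higher on KO 24 h than on any other array. Ndufs8, an iron-sulphur subunit of the complex I core, read 2.14 on KO 24 h, 2.37 on WT 24 h, 1.04 on KO 0 h and 1.53 on WT 0 h. It was 1.11 higher at 24 h in KO and 0.84 in WT, so that both 24 h arrays lay above both 0 h arrays. Cox7a1 was the member that was 2-fold lower. At 1.5-fold, 26 members were higher in KO at 24 h, against 27.5% and 33.5%, and 1 was lower, against 18.6% and 6.96%. Next to Uqcrc1 and Ndufs8 came the complex I accessory subunits Ndufa10 at 0.89, Ndufb8 at 0.89 and Ndufb6 at 0.84.

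In WT cells no member passed 2-fold. Of all genes 15.8% were 2-fold higher and 5.56% lower, and of the other bright genes 2.14% and 2.35%. At 1.5-fold, 12 members were higher, against 28.7% of all and 13.3% of the other bright genes, and 1, Cox7a1, was lower, against 9.73% and 4.51%. Ndufv3 was highest at 0.91, followed by Ndufs8 at 0.84, Atp5j2 at 0.72, Ndufb8 at 0.71 and Sdhc at 0.69. The second Atp5j2 probe gave 0.03 for this difference.

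The same complexes were set side by side between times. Complex I was at 0.53 in KO and 0.52 in WT, complex II at 0.47 and 0.45, complex III at 0.40 and 0.44, complex IV at 0.34 and 0.39, and complex V at 0.48 and 0.33. The complex IV medians include dim tissue isoforms, and its 11 other genes were at 0.44 and 0.40. Medians in KO and WT were 0.23 and 0.28 over all genes, and 0.40 and 0.23 over the other bright genes. All 7 nuclear-encoded complex I core subunits were above 0 in both genotypes, with medians of 0.65 in KO and 0.57 in WT. Of all genes 62.2% lay above 0 in KO and 71.5% in WT, and of the other bright genes 80.2% and 77.1%. In KO 5 of the 7 core subunits passed 1.5-fold higher, against 27.5% of all genes and 33.5% of the other bright genes. In WT 3 did, against 28.7% and 13.3%. Ndufv1, which binds NADH and the flavin, read 4.57 on KO 24 h, 4.67 on WT 24 h, 3.80 on KO 0 h and 4.10 on WT 0 h. The F1 head of ATP synthase had medians of 0.26 in KO and 0.32 in WT, near those of all genes. Its catalytic subunit Atp5b was at 0.26 and 0.19, its partner Atp5a1 at 0.23 and 0.10, and the small subunit Atp5d at 0.56 and 0.54. The exceptions below 0 in KO were Cox7a1, Cox6b2, Cox6a2, Cox4i2, Atp5h and Ndufv3. For Atp5h, subunit d of the stalk of ATP synthase, the brightest probe gave -0.31 in KO and 0.06 in WT but the second gave 0.27 and 0.36. Atp5g1, 1 of 3 genes for the c-ring, disagreed likewise: its brightest probe gave 0.70 in KO and 0.26 in WT, and its second -0.60 and -0.43.

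Members measured by several probes gave a scale for such disagreement. In 28 members the absolute gap between the differences of the 2 brightest probes had a median of 0.18 for KO minus WT at 24 h, 0.10 at 0 h, 0.23 for 24 h minus 0 h in KO and 0.20 in WT. The largest gaps were 0.64, 0.75, 1.31 and 0.69 for the same differences.

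The change over time in KO minus that in WT had a median of 0.05 over the members and 0.03 over all 17102 genes measured on every array. No member passed 2-fold, while 4.72% of all genes were higher and 13.3% lower by that much, and 3.15% and 2.34% of the other bright genes. At 1.5-fold, Uqcrc1 was higher at 0.70 (SE 0.29), against 15.2% and 14.9%, and Ndufv3 at -0.94 and Cox7a1 at -0.67 were lower, against 21.2% and 7.27%. The other bright genes had a median of 0.15.

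**Figure D4:**
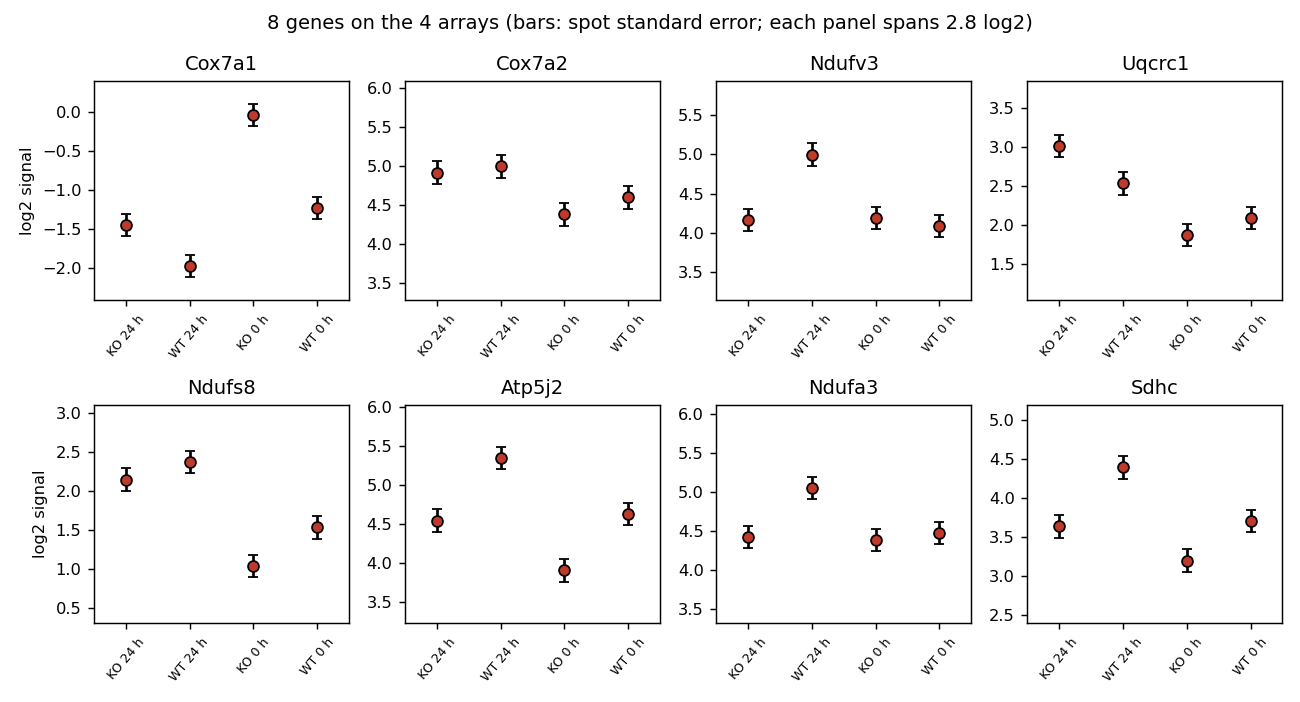
Log2 signal of 8 subunit genes on KO 24 h, WT 24 h, KO 0 h and WT 0 h, with bars for the standard error of the spot; the axes differ between genes and are equal in span. Ndufv3 is high on WT 24 h alone, Cox7a1 is highest on KO 0 h, and Sdhc and Atp5j2 are lower on each KO array than on the WT array of the same time.

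The tissue isoforms of complex IV read below the 75th percentile on every array. Cox7a1 is the form of subunit 7a made mainly in heart and skeletal muscle. It read -1.45 on KO 24 h, -1.98 on WT 24 h, -0.04 on KO 0 h and -1.23 on WT 0 h. KO 0 h was the highest of the arrays. KO lay 1.19 (SE 0.20) above WT at 0 h and 0.52 above it at 24 h, and 24 h minus 0 h was -1.41 in KO and -0.74 in WT. Cox7a2, the form made in most tissues, read 4.91 on KO 24 h, 4.99 on WT 24 h, 4.38 on KO 0 h and 4.59 on WT 0 h. Its sign was opposite in all 4 differences, but its KO minus WT was only -0.08 at 24 h and -0.22 at 0 h (SE 0.20 each). The value at 24 h lay within 1 SE of 0. Cox7a2l, a related protein that joins complexes III and IV, was 0.44 higher at 24 h in KO and 0.56 in WT.

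Mast cell markers were also highest on KO 0 h. They summed to 103 on KO 24 h, 80.5 on WT 24 h, 613 on KO 0 h and 464 on WT 0 h. Without Cd63 these sums were 20.9, 2.68, 543 and 392. In the same order 14, 15, 21 and 20 of 22 markers were well above background. The part of mast cell RNA in the Cox7a1 signal was not tested. Of 6 muscle markers Actn3 and Tnnt3 were well above background on each array, and Myh1, Myh2, Ckm and Myl1 on none. Actn3, an actinin of fast muscle fibres, had a KO minus WT at 24 h of 1.78 and at 0 h of 1.69, the same sign as Cox7a1, and Tnnt3 one of -0.39 and 0.08. In 24 h minus 0 h both markers lay above 0, at 0.07 and 0.82 in KO and 0.54 and 0.73 in WT. Cox7a1 had the opposite sign there, at -1.41 in KO and -0.74 in WT. Their part in the Cox7a1 signal was not tested.

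Other tissue isoforms were dim. Cox8b, Cox8c and Cox7b2, made in muscle or testis, were not well above background on any array, so no difference is given for them. Cox4i2, the lung form of subunit 4, was well above background everywhere but read -4.80 on KO 24 h, -4.81 on WT 24 h, -4.68 on KO 0 h and -4.48 on WT 0 h, and its 24 h minus 0 h in WT, -0.34, had an SE of 0.26. Cox6a2, a muscle form, lay between -2.42 and -2.03, and Cox6b2, a testis form, between -3.40 and -2.99. The common forms Cox4i1, Cox6a1, Cox6b1, Cox7b and Cox8a were all above 0 in 24 h minus 0 h in both genotypes, at 0.12 to 0.62 in KO and 0.33 to 0.55 in WT. So were 62.2% and 71.5% of all genes, and 80.2% and 77.1% of the other bright genes, in KO and WT.

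Ndufa4l2 is made under low oxygen in many cells and is a relative of Ndufa4, which carries a complex I name and is now placed in complex IV. It was well above background on WT 24 h alone, at -4.89. KO 24 h was thus at least 3.48-fold lower than WT 24 h, and WT 24 h at least 5.51-fold higher than WT 0 h. These bounds set the bright signal against the lowest signal that counts as well above background on the dim array. Ndufa4 itself read 4.56 on KO 24 h, 4.77 on WT 24 h, 3.85 on KO 0 h and 4.12 on WT 0 h.

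Genes around the subunits were read from lists. Of the mitochondrially encoded subunits 9 of 13 were on the array, all measured, and 24 h minus 0 h had medians of 0.24 in KO and 0.19 in WT with 9 of 9 above 0 in each. All genes had medians of 0.23 and 0.28, with 62.2% and 71.5% above 0. The other bright genes had 0.40 and 0.23, with 80.2% and 77.1% above 0. ND3 stood apart, with 3.12 on KO 24 h, 3.40 on WT 24 h, 2.98 on KO 0 h and 2.37 on WT 0 h. Assembly factors, the proteins that build the complexes without staying in them, had medians of 0.65 in KO (39 measured) and 0.37 in WT (40 measured), and 23 and 9 passed 1.5-fold higher, against 27.5% and 28.7% of all genes. Sco2, a copper carrier for complex IV, was at 1.16 in KO and 0.37 in WT. Ndufaf4, a complex I assembly factor, was 1.03 higher in KO than in WT cells at 24 h and 0.18 higher at 0 h. Electron carriers and subunits outside the name rule included Cyc1, cytochrome c1 of complex III, which read 4.73 on KO 24 h, 4.81 on WT 24 h, 3.62 on KO 0 h and 4.42 on WT 0 h.

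The TCA cycle supplies NADH and succinate to the chain. Its 19 genes had medians of 0.61 for 24 h minus 0 h in KO and 0.40 in WT, with 18 of 19 above 0 in each, and of -0.01 for KO minus WT at 24 h and -0.23 at 0 h. Pcx, pyruvate carboxylase, was the exception at -1.03 in KO. Above 0 in 24 h minus 0 h lay 62.2% of all genes in KO and 71.5% in WT, and 80.2% and 77.1% of the other bright genes. Genes of glycolysis and the response to low oxygen had a median 24 h minus 0 h of -0.27 in KO and 0.42 in WT, and a KO minus WT of -0.42 at 24 h and 0.23 at 0 h. Of 30 measured at 24 h, 6 were at least 2-fold lower in KO and none 2-fold higher, against 12.2% and 5.76% of all genes. Pdk1, a kinase that holds back pyruvate entry into the TCA cycle, read -3.31 on KO 24 h, -0.44 on WT 24 h, -1.33 on KO 0 h and -1.83 on WT 0 h, so that WT 24 h was highest, as for Ndufa4l2.

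Regulators of mitochondrial gene expression were set beside the subunits. Of 20 on the array, 17 were measured for KO minus WT at 24 h, with a median of 0.03, and 9 lay above and 8 below 0. Of all genes 56.8% lay below 0. Tfam, which packages and transcribes mitochondrial DNA, read 1.25 on KO 24 h, 1.56 on WT 24 h, 0.89 on KO 0 h and 1.52 on WT 0 h. Nrf1 and Gabpa, named for the motifs searched, were 0.36 and 0.03 higher in KO at 24 h. Ppargc1a, the coactivator PGC-1 alpha, was not well above background on WT 24 h and dim elsewhere. Measured members with a motif match in their promoter window (26) had a median 24 h minus 0 h of 0.51 in KO and 0.43 in WT. Those with a window but no match (39) had 0.48 and 0.51.

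**Figure D5:**
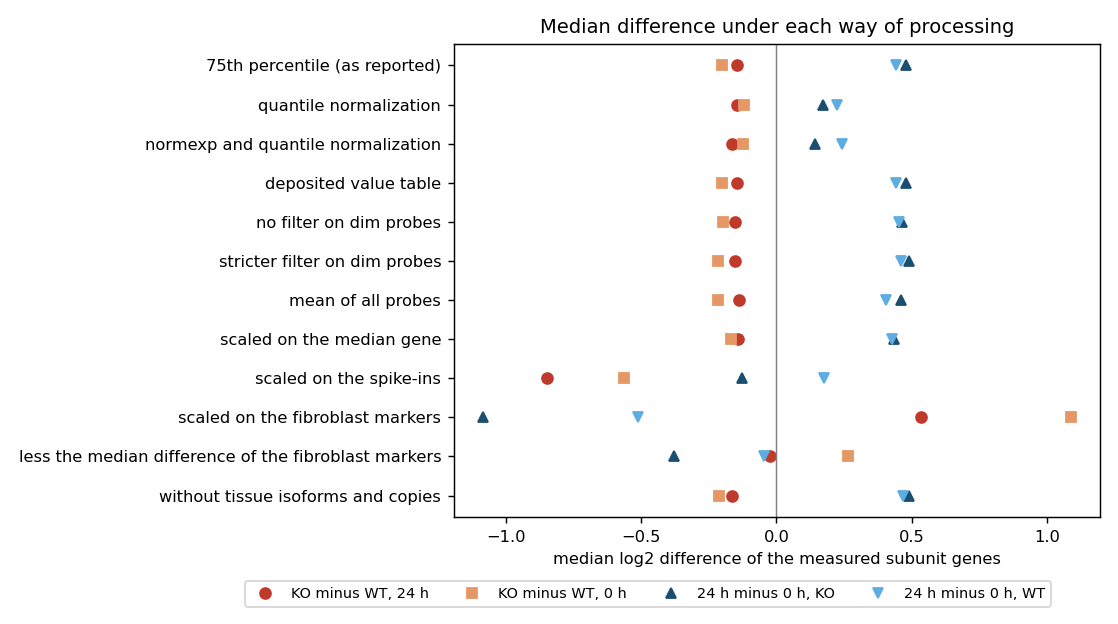
Median log2 difference of the measured subunit genes (horizontal) under each way of processing (vertical), for KO minus WT at 24 h and 0 h and for 24 h minus 0 h in KO and WT. Quantile normalization lowers the medians between times, to 0.17 in KO and 0.23 in WT; scaling on spike-in RNAs moves KO minus WT at 24 h to -0.85, scaling on the level of fibroblast markers turns all 4 medians to the other side of 0, and subtracting the markers' median difference turns all but KO minus WT at 24 h.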

How the data were processed

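Per the file headers, the authors' scanner files hold spot intensity extracted with Agilent Feature Extraction 12.1.1.1 (array design 026655, probes placed on mm9), background-subtracted and detrended within each array. The authors also deposited a value table, a ratio of each intensity to its array's 75th percentile; it is linear and not centred, with column medians of 0.0334 on KO 24 h, 0.0452 on WT 24 h, 0.0483 on KO 0 h and 0.0442 on WT 0 h, and it served as an alternative. Here the deposited processed intensity was taken to log2 and the 75th percentile over 43020 non-control spots subtracted. Control spots and spots flagged as outliers were left out, and spots of a probe averaged. Members kept the file's names: 83 of 87 matched RefSeq by accession, and 1 had a newer symbol.

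The text names the members in the top 5 and bottom 5 of a difference, isoform sets, catalytic subunits and those with disagreeing probes, with up to 3 from each end of other lists; 1 member is counted but not reported by name here. The members, lists and this rule were chosen with earlier results of these data known. Differences were computed with Python 3.11.15 and pandas 2.3.3, normexp values with limma 3.58.1 in R 4.3.3. The calculation was tested on simulated data. All 4 arrays were on 1 slide. Proteins are not analysed here.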

Additional observations from a re-analysis of the deposited data

Results flagged for a closer look

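Ndufv3 was singled out because its contrasts had opposite signs in the groups compared. For 24 h minus 0 h it was at -0.03 in KO, within 1 SE of 0, and at 0.91 in WT. Between genotypes it was at -0.84 at 24 h and 0.10 at 0 h, and 0.10 lies within 1 SE of 0. The difference of these differences was -0.94 (SE 0.29) in both cases, as they are the same quantity, and with 1 array per group it was not tested.

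Uqcrc1 was singled out in the same way. It lay 0.48 higher in KO than in WT at 24 h and at -0.22 at 0 h, and the difference between them, 0.70 (SE 0.29), was not tested.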

How the results depend on the processing

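The median differences of the members rested on the scale given to each array more than on any other choice. Under the deposited value table, the filters on dim probes, the mean of all probes, the scale on the median gene, and tissue isoforms and copies left out (chosen after seeing the data), the medians ran from -0.16 to -0.14 for KO minus WT at 24 h and -0.22 to -0.17 at 0 h. For 24 h minus 0 h they ran from 0.43 to 0.49 in KO and 0.41 to 0.47 in WT, and for the change in KO minus that in WT from 0.018 to 0.054. Quantile normalization gave 0.17 for 24 h minus 0 h in KO, 0.23 in WT and -0.022 for the change in KO minus that in WT. Normexp with quantile normalization gave 0.14 for 24 h minus 0 h in KO and -0.026 for the change in KO minus that in WT. Scaling on 9 spike-in RNAs gave -0.85 for KO minus WT at 24 h, -0.56 at 0 h, -0.13 for 24 h minus 0 h in KO, 0.18 in WT and -0.29 for the difference of these changes. Scaling on the median level of 17 fibroblast markers gave 0.54, 1.09, -1.08, -0.51 and -0.56 for the same. The marker at the median can differ between arrays, so the median of the markers' own differences was also subtracted, an alternative chosen after seeing the data. It gave -0.023, 0.27, -0.38, -0.047 and -0.14, and -0.018 for 24 h minus 0 h of Ndufb6 in KO. The spike-in and marker level scales subtract the same value from every gene of an array. The median of all genes moved with them, to -0.80 and 0.59 for KO minus WT at 24 h. By construction the members relative to all genes could not change, which is no sign of stability. They stayed at -0.05 and -0.26 for KO minus WT at 24 h and 0 h, and 0.26 and 0.17 for 24 h minus 0 h in KO and WT. Relative to all genes, 24 h minus 0 h in KO was -0.08 with quantile normalization. On the fibroblast marker level scale single genes turned too, by the shift it gives every gene of an array. KO minus WT became 0.055 for Ndufa3 at 24 h, and 0.51 for Ndufb9, 0.57 for Atp5j2 and 0.66 for Ndufa10 at 0 h. For 24 h minus 0 h in KO, Uqcrc1 was at -0.43, Ndufs8 at -0.46, Ndufa10 and Ndufb8 at -0.67 and Ndufb6 at -0.72. In WT, Ndufv3 was at -0.043, Ndufs8 at -0.12, Atp5j2 at -0.23, Ndufb8 at -0.25 and Sdhc at -0.27.

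Counts past 1.5-fold moved with the scale as well, as a shift common to all genes does by construction. For 24 h minus 0 h, the 26 members higher in KO became 4 with quantile normalization, 5 with normexp and quantile normalization, and 0 on the spike-in and fibroblast level scales, and the 12 in WT became 3, 2, 1 and 0. The fibroblast level scale put 81 members lower in KO and 30 in WT, where the main setting had 1 each, and 90.0% and 57.5% of all genes. For KO minus WT, the 5 lower at 24 h became 72 on the spike-ins (64.9% of all genes), 0 on the fibroblast markers, 1 with the mean of all probes and 8 with no filter, and the 4 at 0 h became 38 on the spike-ins (28.9% of all genes) and 0 on the fibroblast markers. The fibroblast level scale put 32 members higher in KO at 24 h (50.2% of all genes), against 0 in the main setting, and 80 at 0 h (92.0%), against 1. For the change in KO minus that in WT, the 2 lower became 37 on the fibroblast markers, 11 on the spike-ins, 5 with normexp, 3 with quantile normalization, 6 with no filter, and 1 with the mean of all probes. The calls of Cox7a1 were lost with the stricter filter and with tissue isoforms and copies left out. No paired analysis was possible because each group has 1 array.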
